A study of Homo sapiens with 2 samples.

Results

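Ephrins are ligands held in the cell membrane and EPH receptors are the receptor tyrosine kinases that bind them on a neighbouring cell. Ephrin-A ligands carry a lipid anchor and bind mainly EPHA receptors, while ephrin-B ligands span the membrane and bind mainly EPHB receptors and EPHA4. A bound pair can signal into both cells, as forward signalling through the receptor and reverse signalling through the ligand, and the family is known for guiding cell repulsion, tissue boundaries and axon paths in the embryo. Of 33592 genes listed in either of 2 single-cell RNA libraries, 10 genes of this family are described: the ligand genes EFNA1, EFNB1, EFNB2 and EFNB3 and the receptor genes EPHA1, EPHA2, EPHA4, EPHB2, EPHB3 and EPHB4. They were chosen by symbol with their counts in these libraries known, so their levels and differences are descriptions with no test. The files list 22 EFNA, EFNB, EPHA and EPHB genes, and the 12 that were not chosen are given beside them.

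Both libraries came from H1 (WA01), a long-used line of human embryonic stem cells, and were made to compare the mix of cell states with and without ZNF263. The ZNF263 KO cells were homozygous for a Cas9 deletion of ZNF263, a zinc finger transcription factor, and the other library was labelled WT. Per the labels, dissociated cells with high viability were paired with barcoded beads in microwells, and polyadenylated RNA was captured and counted by unique molecular identifiers (UMIs). There was 1 library per genotype, and the labels do not say how many clones the KO cells came from, so genotype, clone and library cannot be told apart. No p-value can be given, and all intervals are 95% counting intervals that hold no variation between cultures.

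Barcodes were taken as cells at 1000 or more UMIs and 500 or more genes, with mitochondrial (MT-) genes holding no more than 20% of the UMIs, which left 2286 KO cells with 3567881 UMIs and 2935 WT cells with 4650391 UMIs. A second, non-overlapping set, called the shallower barcodes here, had at least 250 but fewer than 1000 UMIs, namely 50551 in KO with 21086560 UMIs and 56837 in WT with 23784553 UMIs. Both libraries drew on nearly the same barcode strings (834126 in both). Of these, 20 strings were cells in both, and 5201 held at least 250 UMIs in both. Without those 5201, the log2 ratios of KO over WT in cells were -1.83 for EFNB2 and -1.88 for EPHA4, beside -1.90 and -1.74 with them. ZNF263 held 27 UMIs in KO cells and 83 UMIs in WT cells, 2.36-fold lower in KO by CPM. It was 1.83-fold lower in the shallower barcodes (180 UMIs in KO and 372 UMIs in WT) and 1.34-fold lower below 250 UMIs (114 UMIs in KO and 166 UMIs in WT), and the labels do not give the deleted part. CPM are a gene's UMIs per 1000000 UMIs of its library in the same set. All 10 listed pluripotent stem cell markers were measured, with summed levels of 3933 CPM in KO cells and 3370 CPM in WT cells, of which L1TD1 alone made up 1871 CPM in KO cells and 1437 CPM in WT cells. SOX2, LIN28A, SALL4, PODXL and ZFP42 had log2 ratios between -0.18 and -0.05, and the other 5 were above 0. TDGF1 was at 0.81 (interval 0.67 to 0.96), DNMT3B at 0.66 (interval 0.52 to 0.80) and POU5F1 at 0.62 (interval 0.36 to 0.88). L1TD1 was at 0.38 (interval 0.33 to 0.43) and NANOG at 0.32 (interval -0.19 to 0.83). Of the 10 markers, 3 were at least 1.5-fold higher in KO cells and 0 lower by that much, beside 3.94% and 13.0% of all measured genes. Of 6 endothelium markers, PECAM1 and CDH5 together held 0 UMIs in KO cells and 1 UMI in WT cells, TEK, TIE1 and CLDN5 held between 1 and 11 UMIs in each, and KDR was at 33.9 CPM in KO cells and 27.7 CPM in WT cells.

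The promoters of 4 members with different ratios are shown: EFNB2 and EPHA4, which were low in KO, EPHB4, whose ratio was close to 1, and EPHA1, which was high in KO. A relation between these sequences and the ratios was not tested. Each line gives the 250 bases before the RefSeq start (GRCh38.p14), 5′ to 3′ on the strand of the gene, with CG dinucleotides in capitals. The windows are chr13:106535663-106535912, chr2:221574203-221574452, chr7:100827524-100827773 and chr7:143408857-143409106, all on the minus strand.
EFNB2: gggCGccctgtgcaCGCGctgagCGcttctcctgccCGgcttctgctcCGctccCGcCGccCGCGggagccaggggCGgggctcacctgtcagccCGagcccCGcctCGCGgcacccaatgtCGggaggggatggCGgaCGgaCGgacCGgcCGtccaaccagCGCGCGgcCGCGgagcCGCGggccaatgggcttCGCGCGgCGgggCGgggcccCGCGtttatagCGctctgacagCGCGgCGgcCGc
EPHA4: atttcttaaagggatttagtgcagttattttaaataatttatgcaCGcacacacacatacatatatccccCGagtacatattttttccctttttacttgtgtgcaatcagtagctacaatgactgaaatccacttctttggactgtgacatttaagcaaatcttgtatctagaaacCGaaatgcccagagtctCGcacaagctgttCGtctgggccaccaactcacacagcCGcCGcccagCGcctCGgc
EPHB4: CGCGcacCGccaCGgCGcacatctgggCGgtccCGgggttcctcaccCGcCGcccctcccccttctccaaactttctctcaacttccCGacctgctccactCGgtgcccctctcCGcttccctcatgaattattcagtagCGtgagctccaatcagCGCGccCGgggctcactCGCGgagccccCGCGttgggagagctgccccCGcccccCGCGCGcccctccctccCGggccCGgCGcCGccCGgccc
EPHA1: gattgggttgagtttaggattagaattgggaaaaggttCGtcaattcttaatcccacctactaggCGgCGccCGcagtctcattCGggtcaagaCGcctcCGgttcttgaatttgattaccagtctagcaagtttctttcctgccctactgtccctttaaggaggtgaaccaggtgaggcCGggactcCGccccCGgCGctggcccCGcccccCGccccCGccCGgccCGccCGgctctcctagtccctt
The EPHA4 start shown is the first of 2 listed starts.

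Over the full windows of 300 bases, which run from 250 before to 50 after the start, base composition differed between the promoters and between the starts of EPHA4. The EFNB2 window was 78.7% G and C with 49 CG dinucleotides, and the EPHA4 window shown 43.0% with 12. The window of the other EPHA4 start was 74.3% G and C with 33 CG. The EPHB4 window was 74.3% G and C with 36 CG, and the EPHA1 window 62.0% with 21, against medians of 58.7% and 14 over 35116 windows of all genes. The letters TCCTCCC, a published binding consensus of ZNF263, or GGGAGGA on the other strand, were in 18.1% of all windows. They were in 0 of the 9 members with a window, EFNB3 having none, and in 3 of 20 family genes with a window (EPHA5, EPHB1 and EPHB6). This says only that the letters are not in these windows.

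All 3 ephrin-B ligand genes were lower in KO cells than in WT cells. EFNB2, the ligand ephrin-B2 that is known for arterial and hindbrain boundary roles, lies on chromosome 13 (106489745 to 106535662). GENCODE 29 lists the antisense gene AL138689.2 over 30484 bases of it, and AL138689.1 on its own strand over 668 bases. The strand setting of the counting is not known, and the ratios of these overlapping genes are not given here. EFNB2 held 44 UMIs in KO cells, or 12.3 CPM (interval 8.96 to 16.6), against 214 UMIs in WT cells, or 46.0 CPM. That is 3.73-fold lower in KO (log2 ratio -1.90, interval -2.40 to -1.43). In the shallower barcodes EFNB2 held 335 UMIs (15.9 CPM) in KO and 1029 UMIs (43.3 CPM) in WT, 2.72-fold lower (log2 ratio -1.45, interval -1.63 to -1.27). The KO and WT intervals of the level did not overlap in either set. In these sums, fewer cells that carry a transcript and less of it in each cell cannot be told apart.

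EFNB1, whose mutation in humans causes a craniofacial boundary disorder, lies on chromosome X (68829021 to 68842160). EFNB1 was at 13.5 CPM in KO cells (48 UMIs) and 32.7 CPM in WT cells (152 UMIs), with a log2 ratio of -1.28 (interval -1.78 to -0.80). Its level in the shallower barcodes was 12.1 CPM in KO and 42.4 CPM in WT, so its ratio there was further from 0, at -1.81 (interval -2.01 to -1.61). EFNB3, the ephrin-B3 gene known as a midline barrier for axons in the mouse, lies on chromosome 17 (7705202 to 7711372). It was at 8.41 CPM in KO cells (30 UMIs) and 20.9 CPM in WT cells (97 UMIs), with a log2 ratio of -1.31 (interval -1.95 to -0.71). The shallower barcodes gave 12.0 CPM in KO and 25.5 CPM in WT, a log2 ratio of -1.09. Summed over the 3 genes, ephrin-B transcripts were at 34.2 CPM in KO cells and 99.6 CPM in WT cells, 2.91-fold lower in KO, and 2.78-fold lower in the shallower barcodes.

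EFNA1, a lipid-anchored ligand of EPHA2 (chromosome 1, 155127876 to 155134899), was too sparse to give a direction. It held 5 UMIs in KO cells and 11 UMIs in WT cells, with a log2 ratio of -0.76 whose interval ran from -2.63 to 0.89. The shallower barcodes held 30 EFNA1 UMIs in KO and 31 UMIs in WT, with a log2 ratio of 0.13 (interval -0.65 to 0.90).

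**Figure D1:**
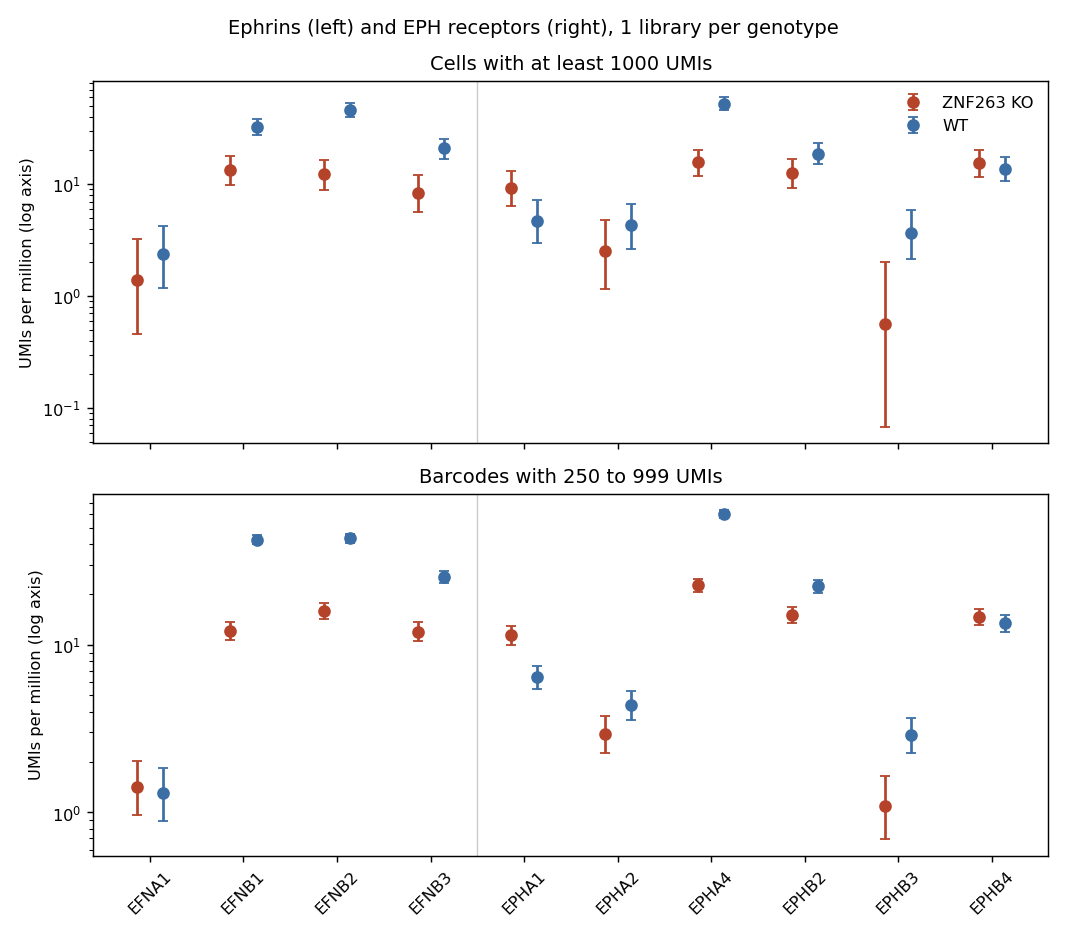
Levels of the 10 genes in CPM on a log axis, with exact Poisson intervals, in ZNF263 KO (red, left) and WT (blue, right), for cells with at least 1000 UMIs (upper panel) and the shallower barcodes with fewer than 1000 UMIs (lower panel). EFNB1, EFNB2, EFNB3 and EPHA4 sit lower in KO in both panels, EPHA1 sits higher in KO, and the EPHB4 intervals overlap.

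Among the receptors chosen, EPHA4 was lower in KO by about as much as EFNB2. EPHA4 binds ligands of both classes and acts in axon guidance (chromosome 2, 221418027 to 221574202). It was at 15.7 CPM in KO cells (56 UMIs) and 52.5 CPM in WT cells (244 UMIs), 3.34-fold lower in KO (log2 ratio -1.74, interval -2.19 to -1.32). The shallower barcodes held 476 UMIs in KO (22.6 CPM) and 1439 UMIs in WT (60.5 CPM), 2.68-fold lower (log2 ratio -1.42). As for EFNB2, the KO and WT levels stood apart in both sets.

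EPHA1 was the only one of the 10 genes that was at least 1.5-fold higher in KO in cells and in both shallower classes. This epithelial EPH receptor gene lies on chromosome 7 (143391129 to 143408856). It was at 9.25 CPM in KO cells (33 UMIs) and 4.73 CPM in WT cells (22 UMIs), 1.96-fold higher in KO, with a log2 ratio of 0.97 (interval 0.15 to 1.82). The shallower barcodes gave 11.4 CPM in KO (240 UMIs) and 6.39 CPM in WT (152 UMIs), 1.78-fold higher (log2 ratio 0.83, interval 0.53 to 1.14). Its gene overlaps ZYX by 823 bases and the antisense gene EPHA1-AS1 by 1080 bases, both on the other strand, and the strand setting of the counting is not given in the sources used here. In cells, ZYX had a log2 ratio of -0.06 and EPHA1-AS1 one of 0.92 (interval -0.28 to 2.18). In the shallower barcodes ZYX was at 0.09 and EPHA1-AS1 at 0.31 (interval -0.18 to 0.80).

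EPHA2, an epithelial receptor for EFNA1 (chromosome 1, 16124337 to 16156069), held 9 UMIs in KO cells and 20 UMIs in WT cells, a log2 ratio of -0.77 with an interval of -2.09 to 0.43. With 62 UMIs in KO and 104 UMIs in WT, the shallower barcodes put it at 2.94 CPM in KO and 4.37 CPM in WT, a log2 ratio of -0.57 (interval -1.05 to -0.11).

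The EPHB receptors differed in the size of their ratios. EPHB3, which with EPHB2 positions cells in the mouse intestinal crypt (chromosome 3, 184561785 to 184582408), held 2 UMIs in KO cells and 17 UMIs in WT cells, a log2 ratio of -2.71 (interval -5.86 to -0.63). For the shallower barcodes, 23 UMIs in KO and 69 UMIs in WT gave 2.66-fold lower (log2 ratio -1.41, interval -2.16 to -0.71). EPHB2 (chromosome 1, 22710838 to 22921500) was at 12.6 CPM in KO cells (45 UMIs) and 18.7 CPM in WT cells (87 UMIs), with a log2 ratio of -0.57 (interval -1.12 to -0.03). It was at 15.1 CPM in KO and 22.4 CPM in WT in the shallower barcodes, a log2 ratio of -0.56 (interval -0.77 to -0.36).

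EPHB4 encodes a receptor of ephrin-B2 and is known as a marker of veins (chromosome 7, 100802565 to 100827523). It was at 15.4 CPM in KO cells (55 UMIs) and 13.8 CPM in WT cells (64 UMIs). Its log2 ratio was 0.16 (interval -0.38 to 0.71), and 0.13 (interval -0.10 to 0.36) in the shallower barcodes, where it held 310 UMIs in KO and 320 UMIs in WT. The intervals included 0, so a difference in EPHB4 was not detectable at this depth, and in the shallower barcodes a log2 ratio beyond 0.36 or below -0.10 lay outside the interval. EPHB4 overlaps SLC12A9 on the other strand by 702 bases, and the log2 ratio of SLC12A9 was 0.51 in cells (interval -0.05 to 1.09) and 0.28 in the shallower barcodes (interval 0.04 to 0.51).

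Counted over all 10 genes, KO cells were below WT cells by 1.5-fold or more for 7 and above them by 1.5-fold or more for 1. The same was true of 13.0% (below) and 3.94% (above) of the 10129 genes whose mean of both libraries was 5 CPM or more. The 10 genes had been chosen with these values known, so nothing is read from that contrast, and EFNA1, EPHA2 and EPHB3 of the 7 had means under 5 CPM. Among the 7 genes of the 10 with a mean of 5 CPM or more, 4 were below WT by that much and 1 above. EPHB2 lay just short of that size, at 1.48-fold lower in KO cells. Among shallower barcodes, 5 of the 10 genes were below WT by that much and 1 above, or 4 and 1 of the 7 at 5 CPM or more, where 10.1% of 10148 genes were below and 2.79% above. The median log2 ratio of the 10, with no limit on the level, was -1.03 in cells and -0.83 in the shallower barcodes. For the 7 genes at 5 CPM or more it was -1.28 and -1.09. All measured genes, meaning those whose mean was 5 CPM or more, had medians of -0.14 and -0.15. Nothing is read from these medians either.

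**Figure D2:**
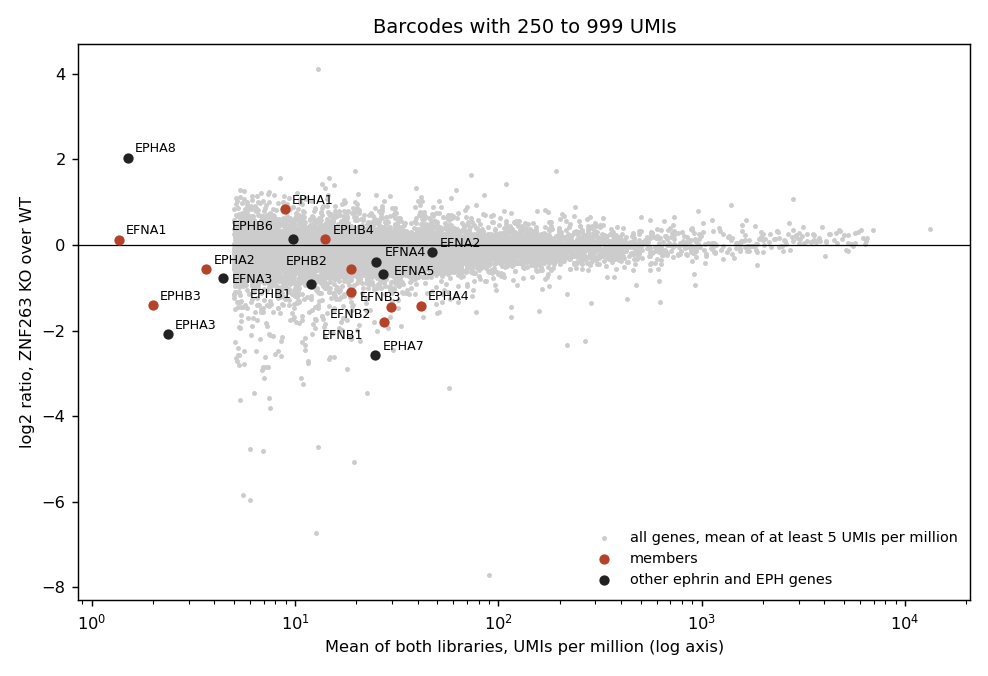
Log2 ratio of ZNF263 KO over WT against the mean level in CPM (log axis) in the shallower barcodes, for all genes with a mean of at least 5 (grey), the 10 members (red) and the other ephrin and EPH genes with a mean of at least 1 (black). EFNB1 at -1.81, EFNB2 at -1.45 and EPHA4 at -1.42 lie under the main band of genes, and EPHA7 lies lowest of the family at -2.58.

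The 12 ephrin and EPH genes that were not chosen also differed among themselves. EPHA7, a receptor with roles in the developing cortex of the mouse (chromosome 6, 93240020 to 93419559), had the largest difference of the whole family in cells. It held 13 UMIs in KO cells (3.64 CPM) and 138 UMIs in WT cells (29.7 CPM), 8.14-fold lower in KO, with a log2 ratio of -3.03 (interval -3.97 to -2.20). The shallower barcodes held 150 UMIs in KO and 1013 UMIs in WT, 5.99-fold lower. EPHB1, which steers retinal axons at the midline in the mouse, had a log2 ratio of -1.05 in cells (interval -1.87 to -0.29), and of -0.90 in the shallower barcodes, and it overlaps KY on the other strand.

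In cells, the log2 ratios of the remaining ligand genes were nearer to 0 than those of the ephrin-B genes. EFNA5, a repellent of growing axons, was at 15.7 CPM in KO cells and 29.2 CPM in WT cells, a log2 ratio of -0.90 (interval -1.37 to -0.44). The log2 ratio of EFNA2 was -0.14 (interval -0.48 to 0.20) and that of EFNA4 was -0.21 (interval -0.62 to 0.19). EFNA3 held 6 UMIs in KO cells and 16 UMIs in WT cells, a log2 ratio of -1.03 (interval -2.67 to 0.40). It was at -0.77 in the shallower barcodes (interval -1.21 to -0.34) and at -1.04 below 250 UMIs, where EFNB3 was at -1.04 too. EFNA3 and EFNA4 are neighbours of EFNA1 on chromosome 1, and GENCODE 29 lists a gene on their strand that overlaps both. EPHB6, whose kinase domain is known to lack catalytic activity, was at 12.3 CPM in KO cells (44 UMIs) and 5.59 CPM in WT cells (26 UMIs), a log2 ratio of 1.14 (interval 0.41 to 1.90). Its log2 ratio in the shallower barcodes was 0.13 (interval -0.15 to 0.40), so its size differed between the sets. EPHA3, EPHA5, EPHA6, EPHA8 and EPHA10 held between 0 and 5 UMIs each in KO cells and between 1 and 7 UMIs each in WT cells. In the shallower barcodes EPHA8 held 51 UMIs in KO and 14 UMIs in WT (log2 ratio 2.04, interval 1.16 to 3.01), and EPHA3 held 19 UMIs in KO and 91 UMIs in WT (log2 ratio -2.09, interval -2.88 to -1.36). Of the 22 genes, 21 had UMIs in both libraries' cells, and KO was below WT by 1.5-fold or more for 13 of these and above it for 2. That count has no limit on the level, and no matching share of all genes is given beside it. At a mean of 5 CPM or more, 7 of 13 were below and 2 above, beside 13.0% and 3.94% of all genes at that level. Of these 13, 7 were among the 10 genes chosen with their values known, so nothing is read from that contrast. Among the 6 genes at that level that were not chosen, 3 were below and 1 above.

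**Figure D3:**
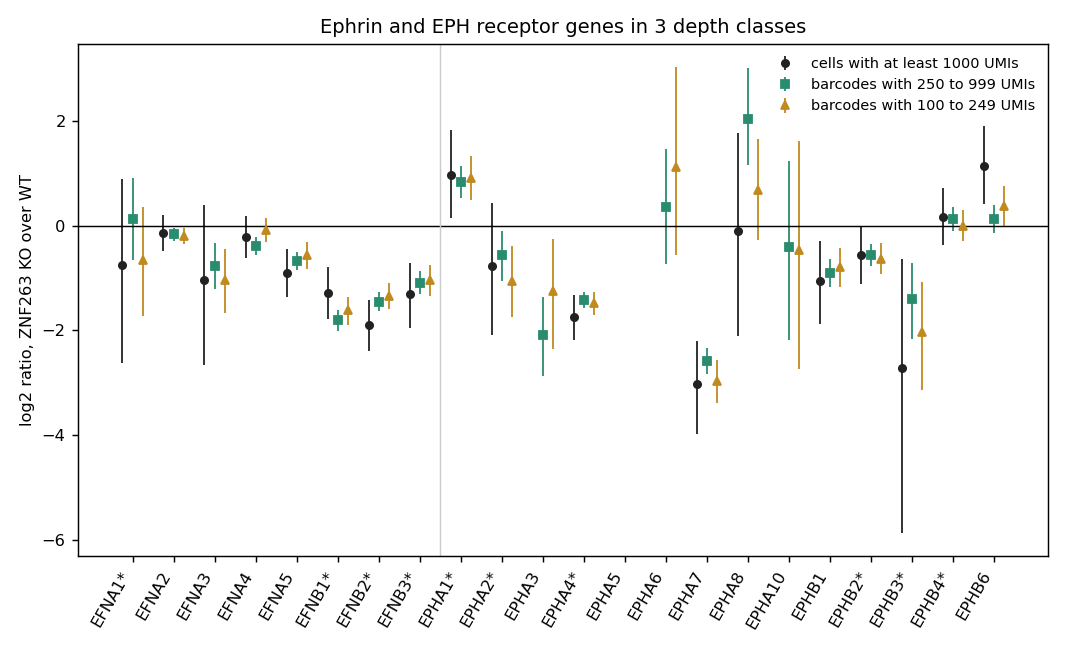
Log2 ratio of ZNF263 KO over WT with exact conditional intervals for the ephrin and EPH genes in 3 depth classes of barcodes, ephrins left of the grey line and receptors right of it, with an asterisk at the 10 members. Values are drawn where both libraries together hold at least 10 UMIs. EFNB1, EFNB2, EFNB3, EPHA4 and EPHA7 lie below 0 in all 3 classes and EPHA1 above 0, while EPHB4 stays at 0.00 to 0.16.

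A further depth class, at least 100 but fewer than 250 UMIs per barcode, lies outside the sets by which the genes are defined but comes from the same libraries. EFNB2 was at 15.6 CPM in KO and 39.6 CPM in WT there (log2 ratio -1.34), EFNB1 at 13.1 CPM in KO and 40.4 CPM in WT (-1.62) and EFNB3 at 11.5 CPM in KO and 23.8 CPM in WT (-1.04). EPHA4 was at 19.7 CPM in KO and 54.7 CPM in WT (log2 ratio -1.48), and EPHA1 at 11.0 CPM in KO and 5.88 CPM in WT (0.91). EPHB4 held 178 UMIs in KO and 193 UMIs in WT. The first 5 of these genes had the same direction as in cells, and EPHB4 had a log2 ratio of 0.00.

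Shares of UMIs within the family do not depend on how the libraries are scaled. Ephrin-B genes held 30.7% of all ephrin UMIs in KO cells (interval 26.2% to 35.4%) and 49.7% in WT cells (interval 46.4% to 52.9%). EFNB2 alone held 11.1% in KO cells (44 of 398 UMIs, interval 8.15% to 14.6%) and 23.0% in WT cells (214 of 932 UMIs, interval 20.3% to 25.8%). Larger shares in KO were held by EFNA2, at 30.7% in KO cells and 18.8% in WT cells, and EFNA4, at 21.9% in KO cells and 14.1% in WT cells. Within the ephrin-B genes, EFNB2 held 36.1% in KO cells (interval 27.6% to 45.3%) and 46.2% in WT cells (interval 41.6% to 50.9%). In the shallower barcodes that share was 39.7% in KO (interval 36.4% to 43.1%) and 38.9% in WT (interval 37.1% to 40.8%), so the gap seen in cells was not seen there.

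The receptors differed in make-up too, with EPHB genes at 57.8% of EPH receptor UMIs in KO cells (interval 51.9% to 63.6%) and 36.0% in WT cells (interval 32.4% to 39.7%). EPHA4 held 19.5% of them in KO cells and 35.4% in WT cells, and EPHA7 held 13 of 287 UMIs in KO cells and 138 of 689 UMIs in WT cells. EPHB4 held 19.2% in KO cells (interval 14.8% to 24.2%) and 9.29% in WT cells (interval 7.23% to 11.7%), and EPHA1 11.5% in KO cells and 3.19% in WT cells. In cells the balance of ligands and receptors was close, with ephrins at 58.1% of family UMIs in KO cells (interval 54.3% to 61.8%) and 57.5% in WT cells (interval 55.0% to 59.9%). The shallower barcodes gave 57.3% in KO (interval 55.9% to 58.7%) and 55.6% in WT (interval 54.6% to 56.6%). Below 250 UMIs the intervals did not overlap, at 60.9% in KO (interval 59.0% to 62.7%) and 57.3% in WT (interval 55.9% to 58.6%). In CPM, all ephrins together were 1.80-fold lower in KO cells and all EPH receptors 1.84-fold lower. The larger EPHB share in KO was no higher level. EPHB genes together were at 46.5 CPM in KO cells and 53.3 CPM in WT cells (log2 ratio -0.20, interval -0.49 to 0.09). Their log2 ratio in the shallower barcodes was -0.36 (interval -0.48 to -0.25).

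**Figure D4:**
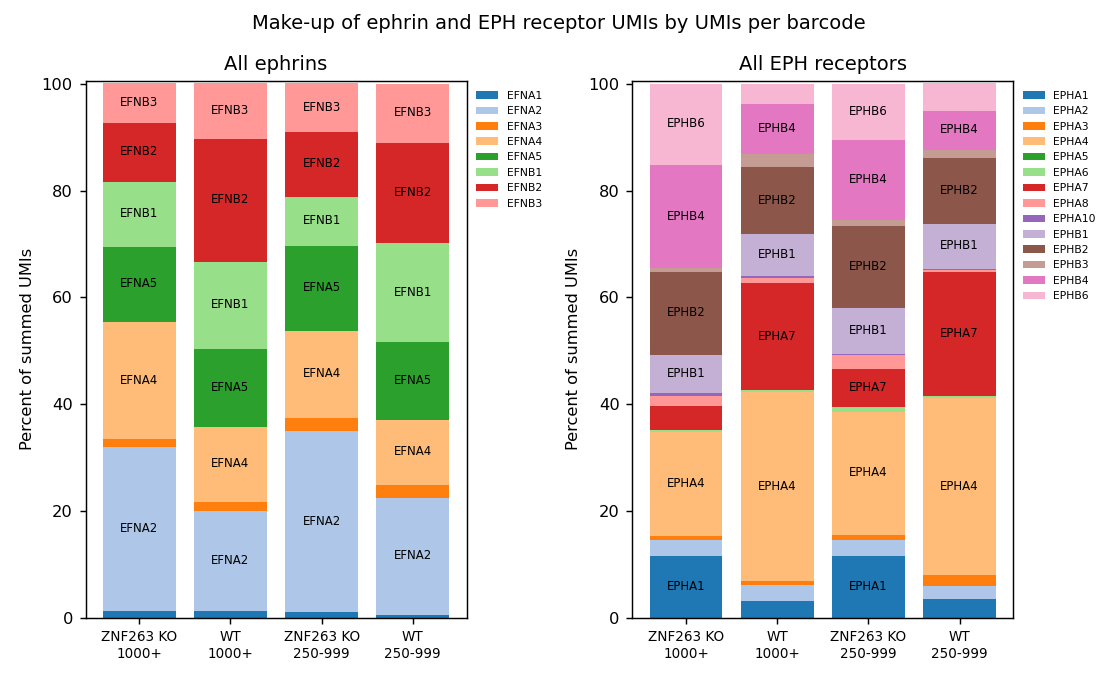
Percent of summed ephrin UMIs (left) and EPH receptor UMIs (right) held by each gene, for ZNF263 KO and WT, in cells with at least 1000 UMIs and in the shallower barcodes. The ephrin-B blocks take 30.7% of ephrin UMIs in KO cells and 49.7% in WT cells, and EPHA4 and EPHA7 take a smaller part of the receptor UMIs in KO.

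Genes most like the leading ligand and the leading receptor were found by the distance in 3 values: the log2 ratio in cells, the log2 ratio in the shallower barcodes and the log2 mean level. EPHA7, at a mean of 16.7 CPM in cells, was under the limit of 20 CPM and was left out. Among the 5710 genes whose mean over the 2 libraries reached 20 CPM, EPHA4 was the nearest to EFNB2 and EFNB2 the nearest to EPHA4, at a distance of 0.28. Both genes had been chosen with these values known, so nothing is read from their closeness. Next to EFNB2 came CPE, the gene of the prohormone-processing carboxypeptidase E, at the same distance after rounding (log2 ratios -1.78 in cells and -1.68 in the shallower barcodes), and the homeobox gene NKX1-2 (-1.82 and -1.80). Those nearest to EPHA4 after EFNB2 were NRIP1, a nuclear receptor corepressor (-1.49 and -1.16), and MACROH2A2, a histone variant gene (-1.83 and -1.57).

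Neural transcripts were lower in the KO library together with these genes. All 7 measured members of the 10 listed neuroectoderm markers were at least 1.5-fold lower in KO cells, as were 13.0% of all measured genes. The marker lists were chosen with earlier results of these data known, so nothing is read from that contrast. The summed level of the list was 39.5 CPM in KO cells and 213 CPM in WT cells, with NEUROG2 at 0 in both. Of 5 primitive streak markers, 2 were measured and both were lower by 1.5-fold or more. That list was at 13.5 CPM in KO cells and 36.3 CPM in WT cells. The part of primitive streak transcripts in the ratios of the ephrin and EPH genes was not tested. Of 4 endoderm markers 0 were measured in cells, and of 5 amnion and trophoblast markers only KRT7 was. Some of these were also lower in KO in the shallower barcodes. There TFAP2A held 1 UMI in KO and 40 UMIs in WT, CDX2 1 and 29, and SOX17 2 and 27. KRT7 (log2 ratio 0.16) and CXCR4 (1 UMI in KO and 0 in WT) went the other way. In cells that held no UMI of the neuroectoderm list, 2162 in KO and 2258 in WT, the log2 ratios were -1.56 for EFNB2, -1.48 for EFNB1, -1.05 for EFNB3 and -1.41 for EPHA4, and EPHA1 was at 0.92. The first 4 were -1.90, -1.28, -1.31 and -1.74 in all cells. At 213 CPM in WT cells, the list was too sparse for a cell without its UMIs to be taken as not neural. The part of neural transcripts in these ratios was therefore not tested. The median share of mitochondrial UMIs was 5.10% in KO cells and 4.36% in WT cells, and its part was not tested either. In cells with 2% to 20% of such UMIs the log2 ratios were -2.03 for EFNB2, -1.37 for EFNB1, -1.43 for EFNB3 and -1.86 for EPHA4. In cells with under 2% they were -1.34 (interval -2.92 to -0.01), -1.05 (interval -2.52 to 0.21), -0.92 (interval -2.74 to 0.61) and -1.21 (interval -2.80 to 0.13), from at most 7 KO UMIs each.

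The level of the same genes also varied among WT cells. CRABP1 encodes a retinoic acid binding protein, and 168 WT cells held at least 3 CRABP1 UMIs, a range of counts and not a cell type. They had a median of 1605.5 UMIs, against 1318 in the other 2767 WT cells. EFNB2 was at 92.4 CPM in the CRABP1-rich WT cells (30 UMIs) and 42.5 CPM in the other WT cells (184 UMIs), a log2 ratio of 1.12 (interval 0.51 to 1.68). EPHA4 was at 120 CPM in the CRABP1-rich WT cells (39 UMIs) and 47.4 CPM in the others, a log2 ratio of 1.34 (interval 0.81 to 1.84). EFNB1 (1.17), EFNB3 (1.29), EPHB2 (1.23) and, of the genes not chosen, EPHA7 (1.34) were higher there as well, each with an interval above 0. EPHB3 (2.04, interval -0.04 to 3.73), EPHA1 (0.41, interval -2.73 to 2.46) and EPHA2 (-0.51, interval -5.89 to 2.14) had intervals that included 0. EFNA1 held 0 UMIs in the CRABP1-rich WT cells. The share of all genes that were higher there is not at hand, so nothing particular to the family is read from these ratios. EPHB4 was at 9.24 CPM in the CRABP1-rich WT cells (3 UMIs) and 14.1 CPM in the others (61 UMIs), with an interval of -2.93 to 1.01. Only 39 KO cells held at least 3 CRABP1 UMIs, with 1 UMI each of EFNB1, EFNB2 and EPHA4. Their log2 ratios over the other KO cells were -0.44 (interval -5.77 to 2.11), -0.31 (interval -5.64 to 2.25) and -0.66 (interval -5.99 to 1.88), and all ephrins together were at -0.91 (interval -2.37 to 0.22). Without the cells that held at least 3 CRABP1 UMIs, 39 in KO and 168 in WT, the KO over WT log2 ratios were -1.78 for EFNB2, -1.15 for EFNB1, -1.18 for EFNB3 and -1.58 for EPHA4.

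**Figure D5:**
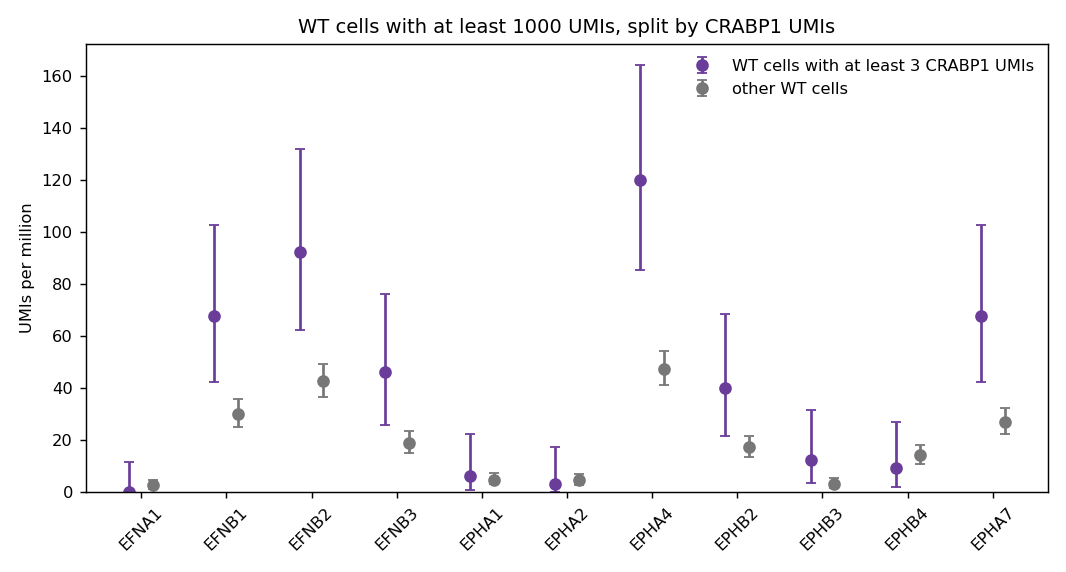
Levels of the 10 genes and EPHA7 in CPM with exact Poisson intervals in WT cells with at least 1000 UMIs, for those with at least 3 CRABP1 UMIs (purple, left, 168 cells) and the other WT cells (grey, right, 2767 cells). EFNB2 is at 92.4 and EPHA4 at 120 in the CRABP1-rich cells, above the other cells, while the EPHB4 intervals overlap.

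Per cell, the transcripts were rare. After each cell was thinned to 1000 UMIs, which left out no cell, 9.84% of KO cells (225 of 2286, exact Clopper-Pearson interval 8.65% to 11.1%) and 18.3% of WT cells (537 of 2935, interval 16.9% to 19.7%) held an ephrin UMI. The shares for EPH receptors were 8.14% of KO cells (interval 7.05% to 9.33%) and 13.9% of WT cells (interval 12.6% to 15.2%). EFNB2 was in 1.09% of KO cells and 4.67% of WT cells, and EPHA4 in 1.75% of KO cells and 5.18% of WT cells. At the same depth, RNA with the make-up of all barcodes holding 10 to 100 UMIs would give 13.0% in KO and 21.2% in WT for ephrins, and 9.14% in KO and 16.8% in WT for EPH receptors. Each is above the share found in the cells. The shares are therefore read as what background alone could give and not as numbers of expressing cells. No cell type that should lack the genes was at hand for comparison. The same make-up would give EFNB2 in 1.63% of KO cells and 4.59% of WT cells, and EPHA4 in 2.25% of KO cells and 5.76% of WT cells. The levels and ratios given above may hold background RNA too, in cells, in the shallower barcodes and below 250 UMIs. Its part was not tested in any of these sets. The shallower barcodes had medians of 366 UMIs in KO and 367 UMIs in WT. Like values across the depth classes are therefore not read as agreement among cells. Without thinning, at median depths of 1289.5 UMIs in KO cells and 1328 UMIs in WT cells, ephrin UMIs were in 14.9% of KO cells and 25.1% of WT cells.

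Genes that act after a bound receptor had mostly small ratios. Of 35 listed forward effectors 29 were measured, with a median log2 ratio of -0.23 beside -0.14 for all genes. Among the 29, KO cells were below WT cells by 1.5-fold or more for 5 and above them for 0, against 13.0% and 3.94% of all measured genes. The lowest with a mean of at least 10 CPM were PIK3R1, a regulatory subunit of PI3-kinase, at 10.1 CPM in KO cells and 23.4 CPM in WT cells (log2 ratio -1.22, interval -1.80 to -0.66), and RASA1, a RAS GTPase-activating protein, at -0.89. TIAM1, an exchange factor for RAC1, was at -0.78 and the SRC-family kinase FYN at -0.61. INPPL1, a lipid phosphatase at a mean of 8.15 CPM, was the fifth, at -1.04. CBL, a ubiquitin ligase of receptor kinases, was the highest at 0.54 (interval 0.23 to 0.85). At a mean of at least 10 CPM, CRKL (0.18), SHC1 (0.09) and GRB2 (0.08) came next. The small GTPases RHOA, RAC1 and CDC42 had log2 ratios of -0.29, 0.06 and 0.07.

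Of 8 listed partners of ephrin-B ligands, 7 were measured, and 3 were below WT by 1.5-fold or more, beside 13.0% of all measured genes. PTPN13, a phosphatase that binds the ephrin-B tail, was at 45.1 CPM in KO cells and 87.7 CPM in WT cells (log2 ratio -0.96, interval -1.23 to -0.69), and DVL2, a Dishevelled protein, at 14.6 CPM in KO cells and 24.5 CPM in WT cells (-0.75, interval -1.25 to -0.26). GRIP1 was the other, at -0.84 (interval -1.72 to -0.01), and is named because the count is small. PICK1 (0.41) and PARD6B (0.27) had intervals that included 0, and PARD6A was at -0.04. Of 16 listed proteases and phosphatases of the family, 10 were measured. In cells 2 of the 10 were below WT by 1.5-fold or more and 0 above, beside 13.0% and 3.94% of all measured genes. In the shallower barcodes 4 of 11 measured were below WT by that much, beside 10.1% of all measured genes. MMP2, a matrix metalloprotease, was at 18.2 CPM in KO cells and 29.9 CPM in WT cells (-0.71, interval -1.16 to -0.28). ADAM10, which sheds ephrins, was at 47.6 CPM in KO cells and 54.0 CPM in WT cells (-0.18, interval -0.47 to 0.11). The phosphatases PTPN1 and PTPRF were at -0.38 and -0.18, and ACP1 at 0.21.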

How the data were processed

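Per the labels, 2 libraries of polyadenylated RNA from single H1 cells were sequenced, 1 per genotype, and the authors deposited for each a table of raw UMI counts by gene and barcode. The submitters' processing notes list STAR 2.7.10a, UMI-tools 1.1.2, hg38, Subread and featureCounts 2.0.1, with no role or order. The annotation, strand setting and any barcode filter were not stated in the sources at hand. In the KO table, 15 entries stood beyond the number declared at its top, and they were kept.

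Counts were summed over the barcodes of a set and scaled to CPM. Levels have exact Poisson intervals, ratios exact conditional binomial intervals and shares exact Clopper-Pearson intervals, all at 95% and for counting error only. Barcodes of 1 library are not replicates, so no test was run. Doublets were not removed; an alternative left out cells above 4 times the median UMIs. The interval functions were tested on simulated counts. Python 3.11.15, NumPy 2.4.6, SciPy 1.17.1, pandas 2.3.3 and matplotlib 3.10.9 were used. Alternatives changed the depth class, filters, fold size, thinning and scaling.

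The members and all gene lists were chosen with earlier results of these data known. Nothing is therefore read from the counts of a list beside the shares of all genes. The text names all 22 family genes, up to 4 genes per pathway list and direction at a mean of at least 10 CPM, and the 3 genes nearest to the leading ligand and receptor. RHOA, RAC1, CDC42, GRIP1, INPPL1, ZYX, SLC12A9 and EPHA1-AS1 were named after their values were seen. Gene positions and promoters are RefSeq's for GRCh38.p14, the assembly called hg38. Promoters matched by symbol for 9 of the 10 members. The values of 1 listed gene are not reported here.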

Additional observations from a re-analysis of the deposited data

How the results depend on the processing

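No paired analysis was possible because there was 1 library per genotype and no replicate number, and for the same reason no library could be left out. Under the other settings, including 3 chosen after seeing the data (without shared barcodes, without CRABP1-rich cells, without cells holding a neuroectoderm marker), no KO over WT direction turned among those of the 10 members whose reported counting interval lay off 0. Other genes were not rerun under these settings. In cells, 97 of 99 single-gene log2 ratios stayed within the interval of the reported one, and the exceptions at 2000 or more UMIs were EPHA2 at 0.44 and EPHB4 at 0.74. In the shallower barcodes 57 of 60 did. EFNA1 in cells ranged over -1.14 to 0.78 and EFNB2 over -2.17 to -1.50. EPHB3 had no ratio at 2000 or more UMIs, where KO held 0 UMIs.

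Members at least 1.5-fold higher in cells numbered 2 at 2000 or more UMIs and 2 after thinning, against 1 reported. Members at least 1.5-fold lower numbered 8 below 250 UMIs, against 5 in the shallower barcodes. The ephrin-B share in WT was 46.3% below 250 UMIs, and the EPHB share in KO was 50.5% in the shallower barcodes. EFNB2 held 38.9% of WT ephrin-B UMIs in the shallower barcodes and 38.2% below 250 UMIs. Without thinning, an ephrin UMI was in 14.9% of KO and 25.1% of WT cells and an EPH UMI in 11.8% of KO and 19.3% of WT cells. Thinned to 500 UMIs, the shares were 6.09% of KO and 10.2% of WT cells, and 4.57% of KO and 8.53% of WT cells. Forward effectors at least 1.5-fold lower numbered 2 at a mean of 20 CPM and 2 at 2-fold, and 2 were higher in the shallower barcodes. Lower ephrin-B partners numbered 1 at 20 CPM and 0 at 2-fold. Lower proteases and phosphatases numbered 0 at 2-fold and 4 of 11 measured in the shallower barcodes. With no filter on low values, 3937 genes were lower and 2030 higher, against 1315 and 399. The causes were not tested. Scaling without mitochondrial and ribosomal protein genes moved ratios by 0.07 in cells and 0.06 in the shallower barcodes, and the median gene with a mean of at least 20 CPM lay at -0.12.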
